A study of Mus musculus with 2 samples.

Results

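The Meis, Pbx and Pknox genes encode homeodomain proteins of the TALE class, which act as DNA-binding partners of the Hox proteins. Their RNA was compared between mouse embryonic stem (ES) cells treated with retinoic acid (RA) for 48 h and untreated cells, without and with Utx. The features of the array annotated to the symbols Meis1, Meis2, Meis3, Pbx2, Pbx3, Pbx4, Pknox1 and Pknox2 were taken, and all 8 genes were present. They had 11 of the 44397 features and were 8 of the 22485 genes with a symbol. Meis3 had 3 features, Pknox1 had 2 and each of the other genes had 1, and a gene's value on an array is the mean of its features.

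The lines were a Utx knockout (UtxKO) and V6.5, a wild-type mouse ES cell line. The gene of Utx is Kdm6a on the X chromosome, and the protein takes the repressive methyl mark H3K27me3 off histones. The treated cells of each line received 100 nM RA for 48 h in medium without leukaemia inhibitory factor (LIF), a cytokine that keeps mouse ES cells undifferentiated, and the untreated cells were cultured on gelatin with LIF. RNA of the RA-treated cells (Cy5) and of the untreated cells (Cy3) of 1 line was hybridised to the same 2-colour Agilent array, with 1 array for UtxKO and 1 for V6.5. Since LIF left the medium when RA entered it, the part of each change cannot be told apart, and "with RA" below covers both. The sources used here do not say how many clones stood behind the knockout line.

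Each gene has 1 log2 ratio per array, read as RA-treated over untreated. The dyes named in the labels make this direction likely, and Rarb, a classical RA target, had 2.40 on the UtxKO array and 2.38 on the V6.5 array. A ratio is a difference between conditions and not a level, so how abundant a gene was in either condition is unknown. Kdm6a itself had ratios of -0.16 in UtxKO and -0.39 in V6.5, which compare conditions within a line and do not check the deletion. The median ratio over all genes was -0.02 on both arrays. With 1 array per line, neither a line's own value nor a difference between the lines could be checked against replicates. Bulk RNA was hybridised, so a change in the number of cells of a type and a change in RNA per cell cannot be told apart. A scale of scatter between features within an array is taken from genes with 2 to 9 features. In these the SD between features had a median of 0.139 in UtxKO and 0.142 in V6.5. These medians need not hold for a gene with a large ratio. The SD was 0.878 in UtxKO and 1.26 in V6.5 for the 2 features of Rarb, and 0.131 and 0.139 for the 10 of Hoxb1. Both arrays carried the dyes the same way round, so dye bias at a feature would enter both arrays with the same sign, and its part in the ratios was not tested.

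As background, Pbx proteins bind DNA together with Hox proteins and sharpen their choice of site. Meis and Pknox proteins (Pknox is also called Prep) bind Pbx through their amino-terminal domains, hold it in the nucleus and form complexes of a Pbx, a Meis or Prep and a Hox protein on enhancers. In the embryonic hindbrain such complexes act on Hox genes themselves, and Meis2 was described early as an RA-induced gene in mouse embryonal carcinoma cells.

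The ratios of Meis1, Meis2 and Pknox2 were the highest of the group on both arrays. In V6.5 the log2 ratio of Pknox2 (1.36) was close to that of Pbx3 (1.10). Meis1 was 11.4-fold and Meis2 12.8-fold higher with RA in UtxKO, and 4.66-fold and 4.09-fold higher in V6.5. Pknox2 was 4.45-fold higher in UtxKO and 2.57-fold higher in V6.5. Pbx2 and Pbx3 had smaller positive ratios, Pbx4 was lower on both arrays, and Meis3 and Pknox1 did not pass the test. A response common to both lines was tested in limma over all 22485 genes. The fit takes the arrays as 2 samples of the same response, with Benjamini-Hochberg adjustment and a threshold of 0.05. Any difference between the lines enters its residual and so widens the SE. In this fit 5 of the 8 genes rose (Meis1, Meis2, Pbx2, Pbx3 and Pknox2), where 8.93% of all genes did, and 1 fell (Pbx4), where 7.93% of all genes did. The median of the 8 mean ratios was 0.87, against -0.02 over all genes. Tested with treat against a change of 1.5-fold, 0 of the 8 genes passed, and 0.872% of all genes passed as higher and 0.431% as lower. Meis1 and Meis2 were at least 4.09-fold higher on both arrays. Their differences between the lines, 1.29 and 1.65, entered their SEs of 0.33 and 0.42. At an unadjusted p under 0.05 in the test against no change, 5 of the 8 were higher and 2 lower, where 16.8% of all genes were higher and 17.9% lower.

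**Figure D1:**
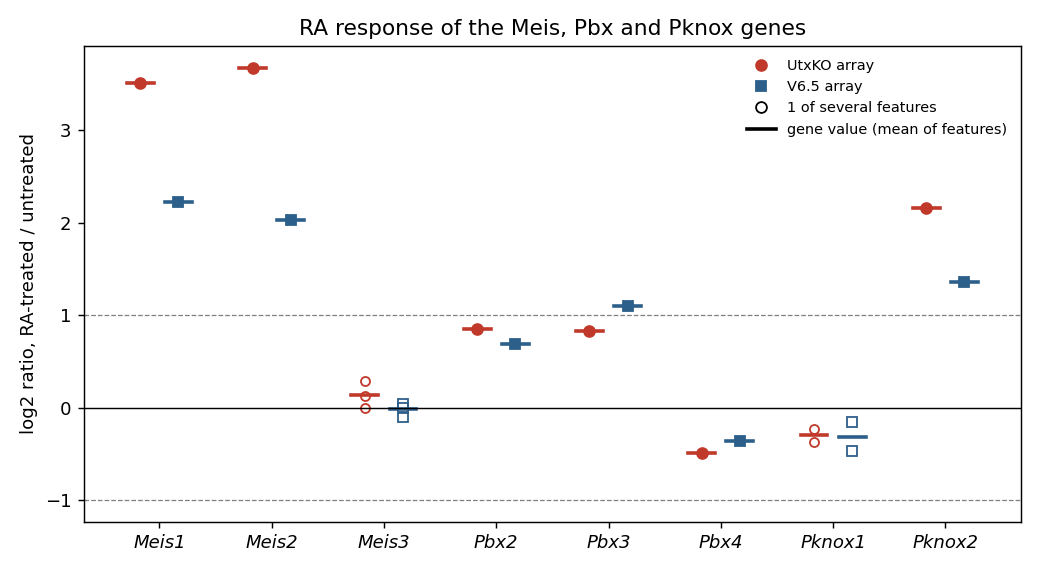
RA-treated over untreated RNA as a log2 ratio (vertical axis) for each of the 8 genes on the UtxKO array (red circles, left of each pair) and the V6.5 array (blue squares, right). Horizontal bars are gene values, open symbols are single features of Meis3 and Pknox1, and dashed lines mark 2-fold. Meis1 and Meis2 lie above 2 on both arrays and higher in UtxKO, while Meis3 lies near 0 on both.

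Meis1 and Meis2 encode closely related proteins that are widely expressed in the hindbrain, limb and neural crest, and Meis3 is their relative in the hindbrain. Meis1 had a log2 ratio of 3.51 in UtxKO and 2.22 in V6.5. On the UtxKO array it ranked 41 among the 22485 genes and on the V6.5 array 103. The shared response of Meis1 was 2.87 ± 0.33 (limma's moderated SE, n = 2 arrays), with an adjusted p of 0.0191. Meis2 had 3.68 in UtxKO and 2.03 in V6.5, at rank 31 in UtxKO and rank 123 in V6.5. Its shared response was 2.85 ± 0.42, with an adjusted p of 0.0278. The 2 genes thus moved by nearly the same amount on each array, and Meis2 stood above Meis1 in UtxKO and below it in V6.5. Each rests on 1 feature, so their order on either array is not known beyond the scatter between features.

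Meis3 had ratios of 0.13 in UtxKO and -0.02 in V6.5. Its 3 features were -0.01, 0.12 and 0.28 in UtxKO, with an SD of 0.146. In V6.5 the features were -0.10, 0.04 and -0.00, with an SD of 0.0714. The features straddled 0 on both arrays, and Meis3 did not pass the shared test (mean 0.06 ± 0.08, adjusted p of 0.669). These values speak of the change alone, since a Meis3 that was not expressed in either condition would also give a ratio near 0.

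The upstream sequences of the 3 Meis genes are shown because 2 of the genes had high ratios and 1 had a ratio near 0. They are the 250 bases before the annotated start, from RefSeq on GRCm38.p6, written along the gene's strand. Capitals mark CpG dinucleotides, the sites of DNA methylation that are dense in many Polycomb-bound promoters. The windows are chr11:19018970-19019219 (minus strand) for Meis1, chr2:116064620-116064869 (minus strand) for Meis2 and chr7:16175145-16175394 (plus strand) for Meis3.
Meis1: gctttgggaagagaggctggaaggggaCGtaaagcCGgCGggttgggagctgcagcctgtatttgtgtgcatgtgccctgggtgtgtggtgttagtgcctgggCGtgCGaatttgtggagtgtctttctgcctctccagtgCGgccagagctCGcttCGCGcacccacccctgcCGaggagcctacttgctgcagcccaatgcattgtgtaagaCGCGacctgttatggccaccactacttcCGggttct
Meis2: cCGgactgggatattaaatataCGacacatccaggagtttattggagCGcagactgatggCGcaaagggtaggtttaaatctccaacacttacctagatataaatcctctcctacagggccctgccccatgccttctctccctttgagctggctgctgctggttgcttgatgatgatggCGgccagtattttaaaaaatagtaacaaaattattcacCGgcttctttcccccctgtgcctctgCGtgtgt
Meis3: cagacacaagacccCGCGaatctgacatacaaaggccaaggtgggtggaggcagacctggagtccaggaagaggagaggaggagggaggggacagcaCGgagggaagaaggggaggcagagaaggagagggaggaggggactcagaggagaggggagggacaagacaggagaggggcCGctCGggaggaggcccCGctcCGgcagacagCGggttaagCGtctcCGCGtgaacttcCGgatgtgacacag
The window of Meis1 held 13 CpG, that of Meis2 7 and that of Meis3 12, against a median of 6 over all 32851 windows of this length. At least 13 CpG were found in 31.5% of all windows, at least 12 in 33.5% and at least 7 in 46.3%. GC content was 59.6% for Meis1, 47.6% for Meis2 and 63.6% for Meis3, with a median of 52.4% over all windows. The CpG count was close for Meis1 and Meis3 and lower for Meis2, and a relation between CpG count and ratio was not tested. The search covered the Meis and Prep site TGACAG, the Pbx and Hox site TGATNNAT and the RA receptor half-site AGGTCA, each on both strands. Of all windows 15.9% held the first, 7.68% the second and 14.0% the third. In the 5 member windows in the table (Meis1, Meis2, Meis3, Pbx2 and Pbx4) 0 held any of them. This says only that these letters are not in these windows.

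The Pbx genes moved less. Pbx2, a broadly expressed member, had a log2 ratio of 0.84 in UtxKO and 0.69 in V6.5, which is 1.80-fold and 1.61-fold. Its shared response was 0.77 ± 0.08, with an adjusted p of 0.0171. Pbx3, best known from the developing hindbrain and spinal cord, had 0.83 in UtxKO and 1.10 in V6.5, or 1.78-fold and 2.15-fold. Its shared response was 0.97 ± 0.10, with an adjusted p of 0.0164. Pbx3 was the only one of the 5 genes that rose to have the lower ratio in UtxKO. Pbx4, which in mouse is expressed mainly in the testis, had -0.49 in UtxKO and -0.36 in V6.5, or 1.40-fold and 1.28-fold lower. Pbx4 fell in the shared fit (-0.42 ± 0.08, adjusted p of 0.0425), the weakest call of the 6. The UtxKO ratio of Pbx4 was exceeded by 93.1% of all genes and its V6.5 ratio by 88.0%.

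Among the Pknox genes, Pknox2 and Pknox1 stood on opposite sides of 0. Pknox2, known mostly from the nervous system, had a log2 ratio of 2.15 in UtxKO and 1.36 in V6.5, at ranks 126 and 291. It rose in the shared fit by 1.76 ± 0.21, with an adjusted p of 0.0201. Pknox1, a widely expressed gene that the mouse embryo needs to survive, had -0.30 in UtxKO and -0.32 in V6.5. Its 2 features were -0.23 and -0.37 in UtxKO (SD 0.101) and -0.16 and -0.47 in V6.5 (SD 0.225). All 4 values were below 0, and the gene did not pass (mean -0.31 ± 0.07, adjusted p of 0.0641). One of its features passed in a fit on single features, with a mean of -0.42 and an adjusted p of 0.0406, and the other did not (mean -0.19, adjusted p of 0.187).

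**Figure D2:**
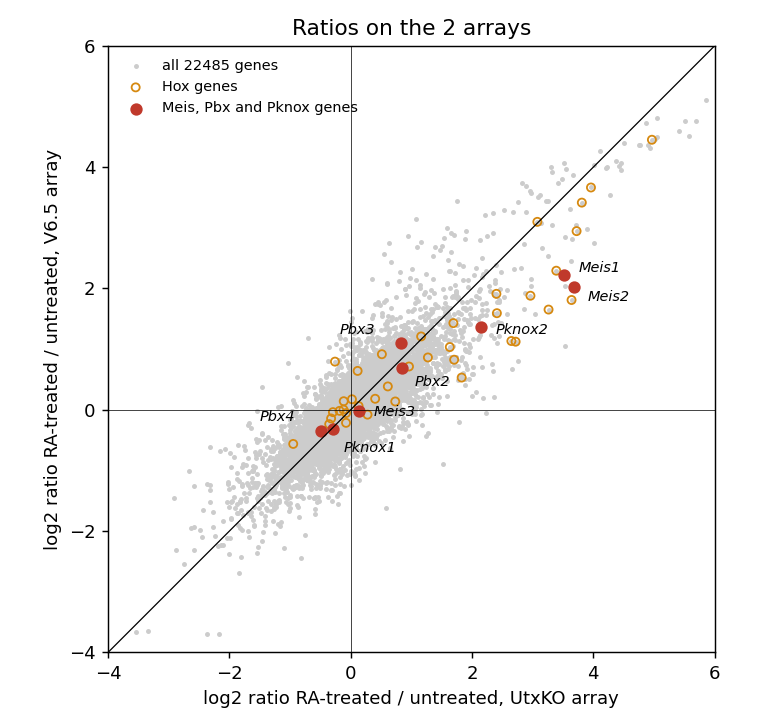
Log2 ratio on the UtxKO array (horizontal axis) against the V6.5 array (vertical axis) for all 22485 genes (grey), the 38 Hox genes (open orange circles) and the 8 cofactor genes (red, named). The diagonal marks equal ratios, and Meis1, Meis2 and Pknox2 lie to its right, among Hox genes, while Pbx3 lies to its left.

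On single arrays the count past 2-fold was 3 of 8 genes in UtxKO (Meis1, Meis2 and Pknox2) and 4 of 8 in V6.5 (these and Pbx3). The same fold was reached upward by 2.92% of all genes in UtxKO and 2.52% in V6.5. At least 2-fold lower were 0 of the 8 genes on either array, against 1.65% of all genes in UtxKO and 1.59% in V6.5. Of all genes 1.69% were at least 2-fold higher on both arrays, and 3 of the 8 were among them. No test stands behind these counts.

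The design asks whether the RA response differs between the lines. The UtxKO ratio minus the V6.5 ratio was 1.65 for Meis2, 1.29 for Meis1 and 0.79 for Pknox2. In folds, the ratio of Meis2 was 3.13 times, that of Meis1 2.45 times and that of Pknox2 1.73 times as high in UtxKO as in V6.5. Of the remaining genes, Pbx2 differed by 0.16, Meis3 by 0.15, Pknox1 by 0.02, Pbx4 by -0.13 and Pbx3 by -0.27. The first 3 lie outside the range from -0.52 to 0.58 that holds the central 95% of all genes, and the other 5 lie inside it. Meis2 had the rank 17 and Meis1 the rank 45 among the 22485 differences, and for 2 of the 8 genes the ratio in UtxKO exceeded that in V6.5 by 2-fold or more, as for 0.583% of all genes. In the opposite direction it was 0 of 8 genes and 0.467% of all genes. These differences have no test, since each is 1 array minus 1 array.

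Large ratios also differed more between the arrays across the whole table. Of the 120 genes with a mean ratio of 2 or more, 71 were higher in UtxKO, with a median difference of 0.24 and quartiles of -0.45 and 0.66. In this set 14 genes differed by at least 2-fold upward and 11 downward. The difference of Meis1 was exceeded by 6 of these genes and that of Meis2 by 2. Among the 1283 genes with a mean ratio between 0.5 and 1, the quartiles of the difference were -0.19 and 0.26, and Pbx2 lay within them while Pbx3 lay just below.

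**Figure D3:**
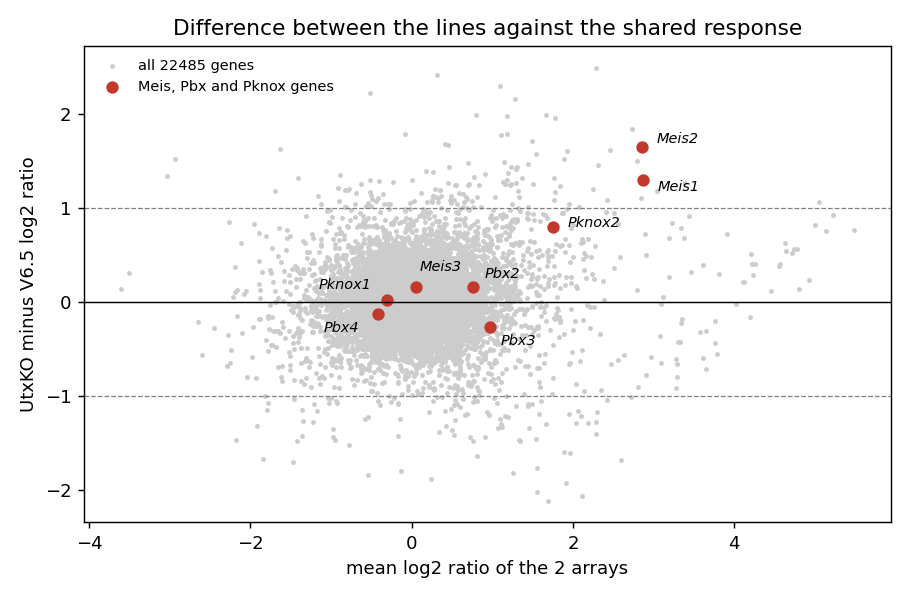
UtxKO minus V6.5 log2 ratio (vertical axis) against the mean log2 ratio of the 2 arrays (horizontal axis) for all 22485 genes (grey) and the 8 cofactor genes (red, named). Dashed lines mark a 2-fold difference, and Meis2 (1.65) and Meis1 (1.29) are the members above the upper line.

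The genes nearest to each member past 2-fold were taken by Euclidean distance over the 2 ratios. With 2 points per gene this likeness is coarse. Nearest to Meis1 were Hoxa5 at a distance of 0.143 (3.39 in UtxKO and 2.29 in V6.5), Olig3 at 0.179 (3.54 and 2.04) and Meis2 at 0.249. Nearest to Meis2 were Olig3 at 0.140, Hoxc4 at 0.224 (3.64 and 1.81) and Meis1 at 0.249. Olig3 is a transcription factor of dorsal neural progenitors. For each of these 2 Meis genes 3 genes lay within a distance of 0.25, so few genes of the array had such ratios. Pknox2 had 19 genes this close, led by Mt4 at 0.024, Gpm6b at 0.038 and the peptide transporter Tap2 at 0.134. Pbx3 had 155, led by Add3 and Prkar2b, both at 0.009, and Mmd2 at 0.023, so its ratios were common ones.

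The Hox proteins are the partners of these cofactors, and their genes moved in the same samples. Paralogs 1 to 5 had 14 measured Hox genes, of which 11 rose and 0 fell, where 8.93% of all genes rose and 7.93% fell. The median ratio of these 14 was 2.90 in UtxKO and 1.70 in V6.5. Paralogs 6 to 8 had 8 genes, of which 5 rose and 0 fell, and medians of 1.43 in UtxKO and 1.32 in V6.5. Paralogs 9 to 13 had 16 genes, of which 4 rose and 1 fell, and medians of -0.10 in UtxKO and 0.07 in V6.5. The ratio was higher in UtxKO for 13 of the 14 genes of paralogs 1 to 5 and 6 of the 8 of paralogs 6 to 8. It was higher for 5 of the 16 of paralogs 9 to 13, 6 of the 8 cofactor genes and 50.7% of all genes. Among these 6 cofactor genes, Pbx2, Meis3 and Pknox1 differed by only 0.16, 0.15 and 0.02. In the cofactor group the median ratio was 0.84 in UtxKO and 0.89 in V6.5.

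The Meis and Pbx proteins are known to bind enhancers of 6 of these Hox genes in the hindbrain. Hoxb1, which specifies a hindbrain segment and keeps itself active through its own enhancer, had 3.08 in UtxKO and 3.10 in V6.5. Hoxb2 had 4.97 in UtxKO and 4.45 in V6.5, Hoxb4 3.81 and 3.42, and Hoxa3 3.96 and 3.67. Hoxb3 had 2.41 in UtxKO and 1.59 in V6.5, means of 2 features with an SD of 1.15 in UtxKO and 0.60 in V6.5. These 5 passed the shared test, with adjusted p from 0.00381 to 0.0172. Hoxa2, with 2.72 in UtxKO and 1.12 in V6.5, did not (adjusted p of 0.0525), and it passed under 4 of 7 other settings, with an adjusted p from 0.0388 (median centring) to 0.389 (treat). Hoxa2 differed between the lines by 1.60, close to Meis2, while Hoxb1 differed by -0.02. Of 9 target genes of these cofactors from other tissues (Pax6, Pax3, Pf4, Sst, Gcg, Plau, Flt3, Trib2 and Myog), 0 rose and 0 fell in limma, with 1 higher and 2 lower at an unadjusted p under 0.05. Over all genes 8.93% rose and 7.93% fell in limma, and 16.8% were higher and 17.9% lower at the unadjusted cut. The ratios of these 9 ran between -0.64 and 0.40 in UtxKO and between -0.33 and 0.37 in V6.5.

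Upstream windows of Hoxb1 and Hoxa2 are shown because they hold the Pbx and Hox site. Both are the 250 bases before the start, from RefSeq on GRCm38.p6, along the gene's strand, with every match to the searched motifs in capitals. The windows are chr11:96365508-96365757 (plus strand) for Hoxb1 and chr6:52164832-52165081 (minus strand) for Hoxa2.
Hoxb1: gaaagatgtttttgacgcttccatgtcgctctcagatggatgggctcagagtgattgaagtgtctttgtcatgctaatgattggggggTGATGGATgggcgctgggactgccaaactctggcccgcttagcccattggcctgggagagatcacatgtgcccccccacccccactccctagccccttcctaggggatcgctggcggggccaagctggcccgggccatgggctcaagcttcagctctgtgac
Hoxa2: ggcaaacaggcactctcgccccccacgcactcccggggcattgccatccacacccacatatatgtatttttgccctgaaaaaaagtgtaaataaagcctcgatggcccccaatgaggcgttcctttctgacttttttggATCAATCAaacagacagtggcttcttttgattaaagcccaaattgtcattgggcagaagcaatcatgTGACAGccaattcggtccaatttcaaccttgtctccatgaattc
In Hoxb1 the match TGATGGAT lies 162 to 155 bases before the start. In Hoxa2 the match ATCAATCA, which is TGATNNAT on the other strand, lies 111 to 104 bases before the start. A Meis and Prep site, TGACAG, follows at 44 to 39 bases before the start of Hoxa2, and the 2 matches do not overlap. Of the 4 target Hox windows in the table (Hoxa2, Hoxa3, Hoxb1 and Hoxb4), 2 held TGATNNAT, 2 held TGACAG and 1 held AGGTCA. Over all windows 7.68% held TGATNNAT, 15.9% TGACAG and 14.0% AGGTCA. Hoxb2 and Hoxb3 had no window, and these counts from 4 windows were not tested. The match is a description of the letters and no binding was measured on these arrays.

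**Figure D4:**
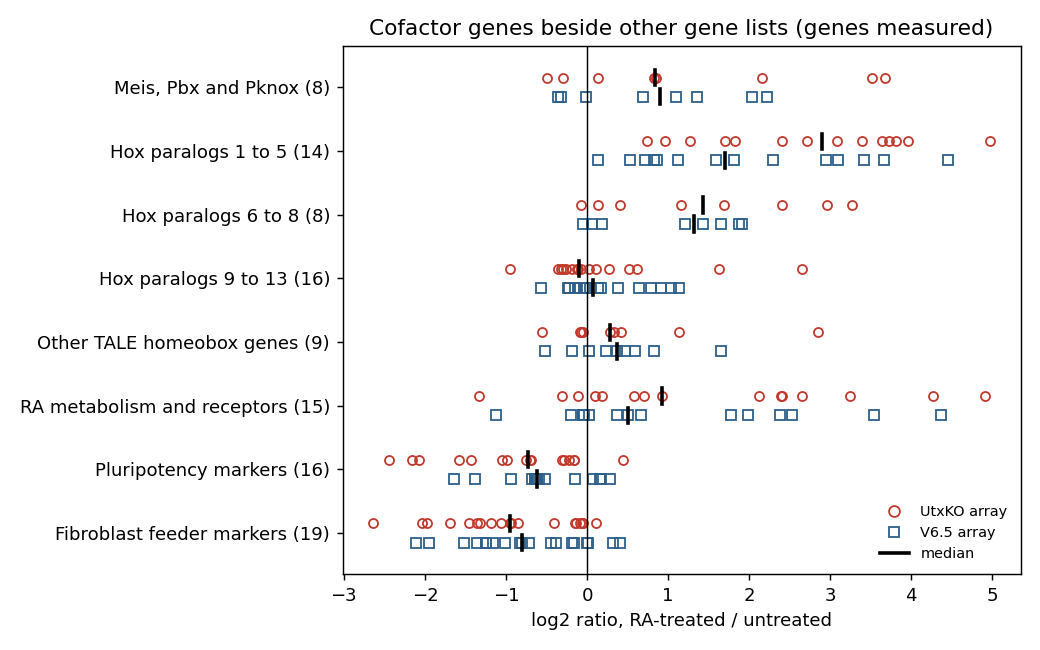
RA-treated over untreated RNA as a log2 ratio (horizontal axis) for each gene of 8 lists on the UtxKO array (red circles, upper row of each list) and the V6.5 array (blue squares, lower row), with the median of each list as a black bar and the number of genes measured in brackets. The cofactor genes spread from -0.49 to 3.68 in UtxKO and from -0.36 to 2.22 in V6.5, and the fibroblast and pluripotency medians lie below 0 on both arrays.

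The other TALE homeobox genes, which are not known as Hox partners, gave a mixed picture. Of 9 measured, 2 rose and 1 fell, where 8.93% of all genes rose and 7.93% fell. Irx3, a neural patterning gene, rose with 2.85 in UtxKO and 1.66 in V6.5, and Irx2 rose with 0.42 and 0.36. Tgif2, a repressor of TGF-beta signalling, fell with -0.55 in UtxKO and -0.51 in V6.5. The median of the 9 was 0.28 in UtxKO and 0.36 in V6.5.

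Of 15 genes listed with RA metabolism and RA receptors, 7 rose and 1 fell, where 8.93% of all genes rose and 7.93% fell. Stra8, itself neither an enzyme of RA metabolism nor an RA receptor, led with 4.91 in UtxKO and 4.37 in V6.5. The RA-degrading enzyme Cyp26a1 followed with 4.27 and 3.54. Stra6, the receptor for retinol-binding protein, had 3.25 in UtxKO and 2.53 in V6.5. Meis1 and Meis2 lay above the mean of the 2 Rarb features in UtxKO and below it in V6.5. Those features had an SD of 0.878 in UtxKO and 1.26 in V6.5, so this order is not known beyond their scatter.

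Markers of other cell types moved in the same RNA. Over all genes 8.93% rose and 7.93% fell in limma, and 16.8% were higher and 17.9% lower at an unadjusted p under 0.05. Of 19 fibroblast markers, listed because ES cells are often raised on feeder fibroblasts although the label names gelatin, 11 fell and 0 rose in limma, with 12 lower and 0 higher at an unadjusted p under 0.05. Their ratios ran between -2.63 and 0.11 in UtxKO and between -2.12 and 0.41 in V6.5, with medians of -0.95 and -0.80. Their part in the ratios of the 8 cofactor genes was not tested. Of 16 pluripotency markers, 6 fell and 0 rose in limma, with 11 lower and 1 higher at an unadjusted p under 0.05. Among them Pou5f1, which marks ES cells, had -1.58 in UtxKO and -0.94 in V6.5. Of 14 neural markers, 4 rose and 3 fell, with Sox3 at 2.12 in UtxKO and 1.96 in V6.5 and Neurod1 at -2.59 and -2.31. Of 11 primitive endoderm markers, 2 fell (Lama1 and Sparc) and 0 rose in limma, with 2 lower and 3 higher at an unadjusted p under 0.05.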

How the data were processed

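The deposited values are 1 log2 ratio per feature and array, made by the authors from 2-colour Agilent arrays. Per the submitters' processing notes, limma was used, with no version or purpose stated. The sources used here do not give the background correction or the normalization within arrays. Log2 as the base was inferred from the values, in which the highest of 5.86 is 58.3-fold, and each column has a mean of 0. The signal of each spot over its background is not known, and precision is limited by the number of arrays.

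Of 44397 features, 33026 had 1 symbol in the platform annotation, 0 had several and 11371 had none, and all 8 members matched the RefSeq table. Features of a gene were averaged. Limma 3.58.1 in R 4.3.3 (lmFit, eBayes) fitted an intercept over both arrays, two-sided, with Benjamini-Hochberg adjustment over 22485 genes, 1 residual and 2.98 prior degrees of freedom. Its p-values rest on the spread of a gene between these 2 arrays and, through the prior, on that of all genes. They do not measure the spread between cultures. The step was tested on simulated data. Python 3.11.15 with pandas 2.3.3, numpy 2.4.6 and matplotlib 3.10.9 served for the rest.

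Named were all members, the 3 genes nearest to each member past 2-fold, the 6 Hox targets and up to 4 called genes per list with large ratios. Other genes named were chosen after their values were seen. The members and the 10 lists were chosen with earlier results of these data known, and the CpG count after the values were seen. The alternatives were centring, scaling between arrays, the summary over features, robust eBayes, treat, a fit on single features and a 1.5-fold threshold.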

Additional observations from a re-analysis of the deposited data

Results flagged for a closer look

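Meis3 was singled out because its ratio had opposite signs on the 2 arrays, 0.13 in UtxKO and -0.02 in V6.5. The difference was not tested, and with 1 array per line any gene near 0 can meet this criterion. Its 3 features each had the higher ratio in UtxKO, by 0.09, 0.08 and 0.28. They come from the same 2 arrays and are not replicates, and 21.8% of all genes had a larger difference than Meis3.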

How the results depend on the processing

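Median centring, scaling between arrays, the median over features and robust eBayes kept the direction and the call of each of the 8 genes. The adjusted p ran from 0.012 to 0.0222 for Meis1, from 0.0185 to 0.0324 for Meis2 and from 0.0391 to 0.043 for Pbx4 over these settings. Of the members, the median over features could move the ratio of Meis3 alone, since it equals the mean for 1 or 2 features. Against 1.5-fold with treat, the test itself asks for more and 0 members passed as higher and 0 as lower, at mean ratios of 2.87 for Meis1, 2.85 for Meis2, 1.76 for Pknox2, 0.97 for Pbx3, 0.77 for Pbx2 and -0.42 for Pbx4. The treat adjusted p was 0.0768 for Meis1, 0.134 for Meis2, 0.116 for Pknox2, 0.254 for Pbx3, 0.816 for Pbx2 and 1 for Pbx4. Treat left 5 genes of Hox paralogs 1 to 5 higher, 3 among paralogs 6 to 8 and, among paralogs 9 to 13, 0 higher and 0 lower. It also left 0 other TALE genes either way, 0 RA genes lower, 1 pluripotency marker lower, 5 fibroblast markers lower, 1 neural marker higher and 1 lower, and 0 endoderm markers lower. Over all genes it left 196 higher and 97 lower, against 2009 and 1784. With 1 feature per gene, the mean of Meis3 changed sign to -0.052 (adjusted p of 0.704) because another feature stands for the gene, and 7 target genes were called higher, Hoxa2 and Pax6 among them, and 1 (Trib2) lower. In the fit on single features Pknox1 passed at -0.42, so 2 members were lower, and 8 target genes were higher, Hoxa2, Pax3 and Pax6 among them, and 1 (Trib2) lower. For genes with several features, the one with the lowest p stands for the gene, while Hoxa2 has 1 feature and the same mean, and its adjusted p is taken over all features. Centring on the median called 4 other TALE genes and 1 endoderm marker higher. It shifts each array by 0.031 to 0.035. At 1.5-fold in place of 2-fold, 5 members were higher in UtxKO. The UtxKO minus V6.5 values moved by less than 0.199 under each of the 4 alternatives run. Those that change the summary over features could move only Meis3 and Pknox1 among the members. No paired analysis was possible because each line has 1 array, and no replicate could be left out for the same reason.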
